A study of Mus musculus with 6 samples.

Results

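The comparison is of mouse brain without and with DNA topoisomerase IIβ just before birth. Its members are 2 of the 6 arrays of the series, the E18.5 top2b-/- array and the E18.5 Top2b+/+ array, chosen by their titles, and every difference is the first minus the second on the log2 scale. Both hold RNA of whole brain from male embryos in 129SvEv, with some 129SvJ in the background. The other 4 arrays are the same genotypes at E14.5 and E16.5, male but for a female top2b-/- embryo at E16.5, and show which differences were also seen earlier. With 1 array a side there was no replicate, so no difference was tested. The sources used here do not state whether brains were pooled, and the labels name no tissue or cell type to which the loss of Top2b is limited.

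Type II topoisomerases pass one DNA double strand through another and so relieve the torsion that builds up around a moving RNA polymerase. Topoisomerase IIα, encoded by Top2a, serves dividing cells, while topoisomerase IIβ, encoded by Top2b, is the main form in cells that have left the cell cycle, neurons among them. Late in gestation, cortical neurons settle in their layers, axons grow to their targets, synapses begin to form and progenitors start to make astrocytes.

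Values are intensities of probe sets after each array was scaled to a common median. Deposited values below 0 made up 17.3% of the Top2b+/+ array and 17.8% of the top2b-/- array at E18.5. Values under a noise floor of 42.4, set from the spread of low and negative readings, were raised to it, so a fold with one array under the floor is given as "at least". Of 12422 probe sets, 7818 lay above the floor on 1 or both E18.5 arrays and are called measured, 7081 of them on both. Across these 7818 the quartiles of the difference were -0.17 and 0.19, and the 5th and 95th percentiles -0.67 and 0.61. Pairs of values below give the top2b-/- intensity first, "against" the Top2b+/+ intensity, as scaled and before the floor.

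Top2b, the targeted gene, read 35.8 against 339.8 at E18.5, at least 8.01-fold lower. From E14.5 to E18.5 the top2b-/- arrays read 50.1, 47.5 and 35.8 and the Top2b+/+ arrays 559.9, 292 and 339.8. The genotypes did not overlap, and the E18.5 top2b-/- reading lay under the floor. Whether its probes match the deleted stretch was not stated. Top2b was the 1 gene 2-fold lower among 6 measured topoisomerase and related repair genes, and none was 2-fold higher. Top1, which cuts a single strand, read 1887 against 1642, and Top2a 93.1 against 89.2.

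At E18.5, 181 of 7818 measured probe sets (2.32%) were at least 2-fold lower in the top2b-/- brain and 110 (1.41%) at least 2-fold higher. One array was under the floor for 55 of the lower and 47 of the higher ones. Taking 1 probe set a gene, 123 of 5922 measured genes (2.08%) were lower and 77 (1.3%) higher. The counts moved with the floor: with a floor of 142 they were 56 and 14 probe sets, and with one of 2.49 they were 844 and 649. The brighter of the 2 readings had a median of 186 over the lower probe sets, 148 over the higher ones and 233 over all measured.

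**Figure D1:**
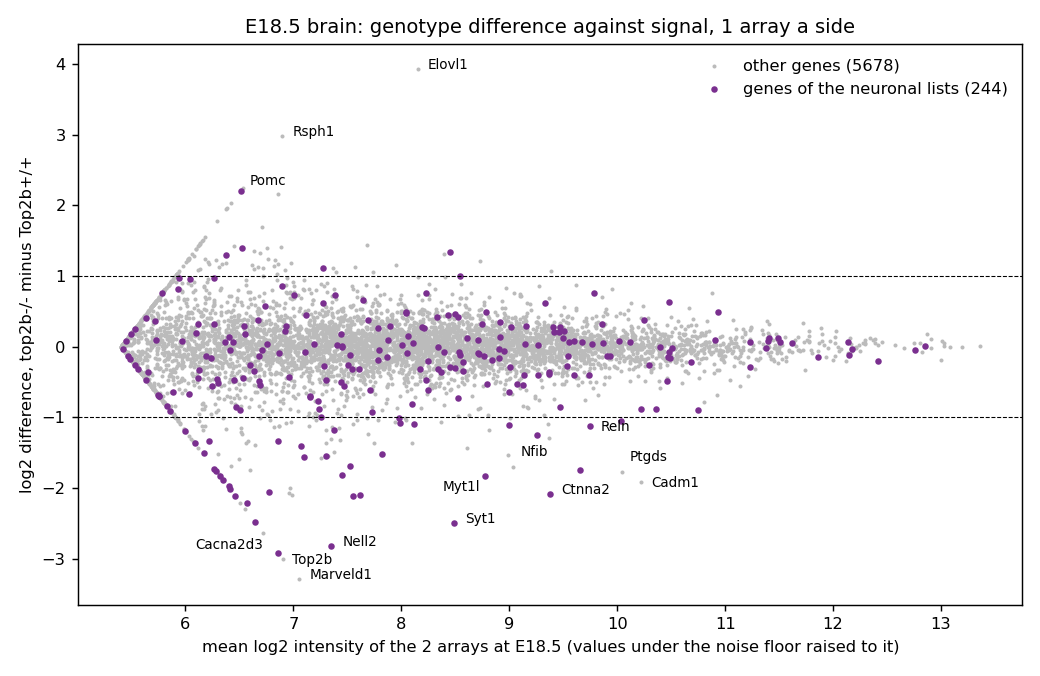
Log2 difference at E18.5 (top2b-/- minus Top2b+/+) of 5922 measured genes against the mean log2 intensity of the 2 arrays, 1 point a gene, with the 244 genes of the neuronal lists in purple and dashed lines at 2-fold. The slanted edges on the left are genes with one array at the noise floor, and Elovl1, at 3.92, is the highest point.

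The 12 lowest and 12 highest genes were ranked by their most extreme probe set. In 8 of the 12 lowest it was also the probe set with the highest mean, and ranking by that one puts Epha3, Nxph1, Cdh13 and Tenm2 in place of Ctnna2, Ptgds, Myt1l and Cadm1. Several of the 12 lowest encode proteins of neuronal membranes and synapses. Cacna2d3, an α2δ subunit of voltage-gated calcium channels, read 5.09 against 319, at least 7.53-fold lower. Nell2, a secreted glycoprotein of neurons, read 61.4 against 435, 7.09-fold lower. Syt1, the calcium sensor of synaptic vesicle release, read 151 against 854, 5.65-fold lower. Of these 3, Cacna2d3 alone had its top2b-/- reading under the floor.

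Ctnna2, the neuronal α-catenin that links cadherins to actin, had 3 probe sets, at 324 against 1367, 121 against 898 and 25.9 against 206. Myt1l, a zinc finger protein that represses non-neuronal genes, had 3, at 233 against 829, 116 against 569 and 113 against 248. Cadm1, an immunoglobulin-type adhesion molecule of synapses, also had 3 that were lower, among them 188 against 879, 4.67-fold lower. In these genes the probe sets named were all at least 2-fold lower, on the same 2 arrays.

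Cdh8, a cadherin, was at least 5.57-fold lower (26.8 against 236), and Ptprg, a receptor tyrosine phosphatase, at least 4.90-fold lower (41.2 against 208). The remaining 3 after Top2b were of other kinds. Ptgds, which makes prostaglandin D in meninges, had intensities of 331 against 1924 on the probe set furthest apart. Marveld1, a membrane protein, read -89.1 against 415, and Gtf2f2, a subunit of the general transcription factor TFIIF, 33.3 against 263. For Marveld1 and Gtf2f2 the difference was above 0 at both younger ages.

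Among the 12 genes with the highest differences, the ranked probe set lay under the floor in the Top2b+/+ brain for 8. For 4 of the 12, Hdgf, P4hb, Mcm5 and Car4, the probe set with the highest mean was not 2-fold apart. Elovl1, which elongates very long fatty acids, read 1112 against 73.2, 15.2-fold higher, and its top2b-/- arrays read 909, 523 and 1112 from E14.5 to E18.5 against 127, 46.7 and 73.2. It was the 1 gene of the 12 that was also 2-fold higher at both younger ages. Pomc, the precursor of ACTH and of hypothalamic peptides, was at least 4.63-fold higher (196 against 16.9). Mmp9, a matrix protease, was 4.46-fold higher (245 against 55.1).

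Several of the others rested on 1 of 2 probe sets, and 4 of the 12 carried the array maker's suffix _r_at, for probe sets picked under relaxed rules. Hdgf, a growth factor, read 662 against 112 on such a probe set, but its other probe set had a difference of 0.05. Mcm5, a subunit of the replicative helicase, was 4.26-fold higher on one and read 198 against 227 on the other. P4hb, a protein disulphide isomerase, read 222 against -176, with 0.02 on its other probe set. Rsph1, of motile cilia, read 335 against 31.6 on an _r_at probe set. The carbonic anhydrase Car4 read 177 against -49.2 where it was ranked, but 125 against 145, the other way, on its second probe set. The list ended with Serpina6, a plasma carrier of corticosteroids, the sarcomere protein Myoz1, the adaptor Grb7 and Vpreb1 of pre-B cells, each with the Top2b+/+ reading of the ranked probe set under the floor.

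Over the array the suffix _r_at marked 4.80% of measured probe sets, 7.73% of the lower and 16.4% of the higher ones. Of 48 genes with several measured probe sets and at least 1 of them 2-fold lower, 38 had every probe set below 0 and 11 had every one 2-fold lower. Of 23 such genes with a probe set 2-fold higher, 13 had every one above 0 and 0 had every one 2-fold higher.

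Genes of the neuronal lists were 2-fold lower more often than measured genes as a whole, a comparison given without a test. Of 420 genes in these lists, 300 were on the array and 244 measured at E18.5. Of these, 37 (15.2%) were 2-fold lower, beside 2.08% of all measured genes, and 6 (2.46%) were 2-fold higher, beside 1.3%. The median difference was -0.13, beside 0.01 over all genes, so most members lay near 0 and a minority far below it. With the floor at 142, 18 were lower and 2 higher. In whole brain, fewer cells of a type and less RNA per cell cannot be told apart.

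**Figure D2:**
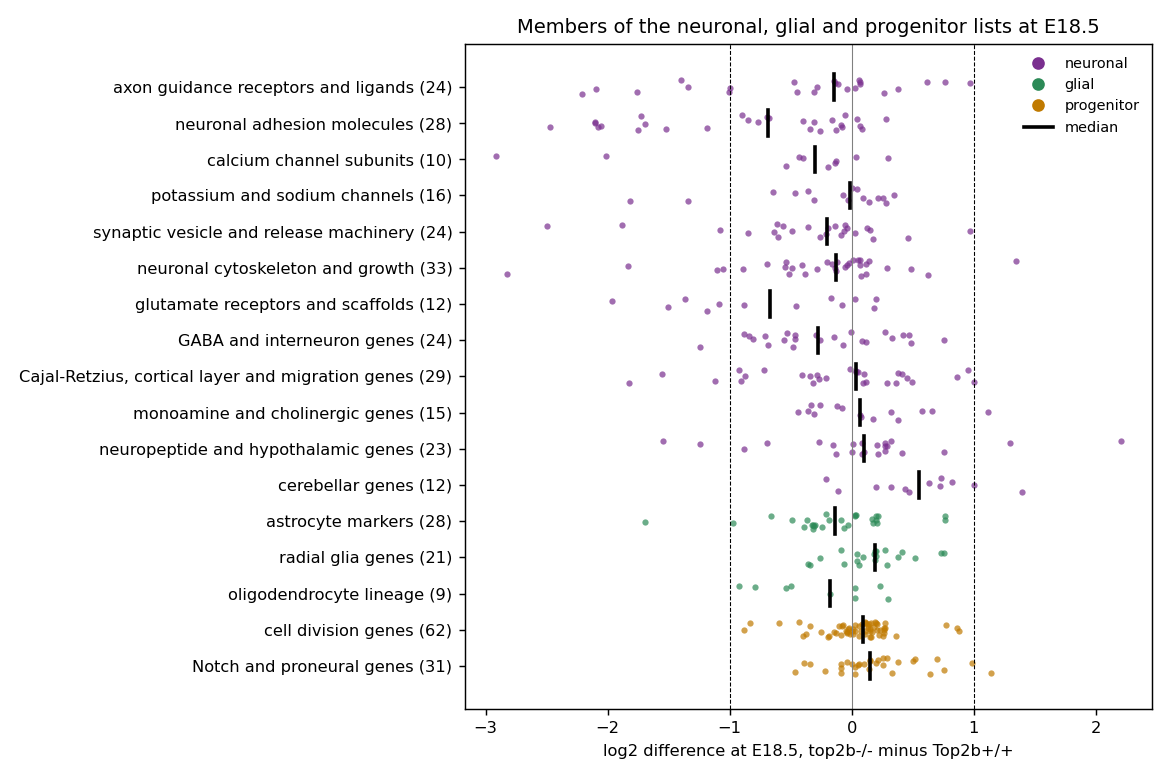
Log2 difference at E18.5 (top2b-/- minus Top2b+/+) of each measured gene of the neuronal, glial and progenitor lists, 1 point a gene from 1 array a side, with each list's median marked and dashed lines at 2-fold. In the adhesion list 10 of 28 genes lie past the lower line, while no cell division gene, each by its probe set with the highest mean, passes either line.

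Among receptors and ligands of axon guidance, which steer growing axons, 6 of 24 measured genes were 2-fold lower and 0 were 2-fold higher. All 6 were receptors. Robo1, which binds Slit proteins, read 94.7 against 405, 4.28-fold lower. Of the Eph receptors, which bind ephrins on neighbouring cells, Epha3 read 44.3 against 205, Epha7 41.5 against 144, Epha5 82.7 against 218 and Epha4 178 against 358. Dcc, the receptor for netrin, read 46.9 against 119. The ephrin ligands Efnb2 and Efnb3 read 837 against 798 and 1144 against 1088, and the semaphorin receptor Nrp1 930.1 against 1023.

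Adhesion molecules join axons, dendrites and synapses. Of 28 measured, 10 were 2-fold lower and 0 were 2-fold higher, with a median of -0.68. The median was -0.40 with the floor at 142. Cdh13, a cadherin without a cytoplasmic tail, was at least 4.31-fold lower (33.4 against 183). Tenm2, a teneurin that bridges synapses, read 90.5 against 389.8 and its relative Tenm3 111 against 251. Alcam, of the immunoglobulin type, read 53.9 against 224. The list went on with δ-catenin, Ctnnd2 (440.1 against 1480.0), the receptor phosphatase Ptprd (103 against 331), Ncam2 (30.6 against 140.1) and Thy1, a surface protein of maturing neurons (134 against 383). The neural cell adhesion molecule Ncam1 had a difference of -0.89, short of 2-fold.

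In the ion channel lists, 2 of 10 calcium channel and 2 of 16 potassium and sodium channel genes were 2-fold lower. Both calcium channel genes encode α2δ subunits, which bring channels to the cell surface: beside Cacna2d3 it was Cacna2d1, at least 4.03-fold lower (21.2 against 171). Both others were potassium channels, Kcnma1, gated by calcium and voltage, at 93.5 against 329, and Kcnd2, of the fast inactivating kind, at 72.8 against 184. Kcnk2, a background potassium channel, read 783 against 644, and the median of that list was -0.01 (0.07 unscaled).

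Of 12 glutamate receptor and scaffold genes, 5 were 2-fold lower, and the median was -0.67. With the floor at 142 the median was -0.16, so its size depended on the floor. The kainate receptor subunit Grik2 was 3.91-fold lower (42.9 against 168), and Grik1 at least 2.28-fold lower (17.1 against 96.6). Grid1, a δ-type receptor, read 42.9 against 121, the metabotropic receptor Grm8 39.6 against 109 and the AMPA receptor subunit Gria1 190.3 against 405. Gria2, another AMPA subunit, had differences of -0.88 and -1.40 on its 2 probe sets. In the top2b-/- brain Grik2 and Grid1 read barely above the floor of 42.4, and Grik1 and Grm8 under it.

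In the machinery of transmitter release 3 of 24 genes were 2-fold lower. Beside Syt1 these were Syt2, a calcium sensor of fast synapses (20.5 against 156), and the complexin Cplx1 (175 against 368). The vesicle protein Vamp2 read 1534 against 1774, and Snap25, of the same fusion complex, 584 against 749. Among 33 genes of neuronal cytoskeleton and growth, 4 were 2-fold lower: Nell2, Myt1l and the RNA-binding proteins Elavl2 (349 against 750.5) and Celf4 (725 against 1509). The neuronal tubulin Tubb3 read 5080.1 against 5847 and the growth cone protein Gap43 2646 against 2681. Nrsn1, a vesicle protein, was 2.54-fold higher (558 against 219.5).

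Of 24 GABA and interneuron genes 1 was 2-fold lower, the peptide Npy (396 against 940.4), and the median was -0.28. Sst, another interneuron peptide, read 969 against 1790.1, and Gad1, which makes GABA, 1355 against 1495. Of 23 neuropeptide and hypothalamic genes 2 were lower, Npy and Tac1, the precursor of substance P (92.3 against 269.5), and 2 higher, Pomc and Pnoc, the precursor of nociceptin (2.46-fold higher). Of 15 monoamine and cholinergic genes none was 2-fold lower and Gata3, a transcription factor of serotonin neurons, was 2.17-fold higher (228 against 105).

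Genes of Cajal-Retzius cells, cortical layers and migration had a median of 0.03, with 3 of 29 lower. Reln, the glycoprotein that Cajal-Retzius cells secrete, read 584 against 1267, 2.17-fold lower. Dab1, the adaptor that carries its signal inside migrating neurons, read 79.7 against 234, 2.94-fold lower. Ebf1, a transcription factor of young neurons, was at least 3.54-fold lower (9.95 against 150.0). The proneural factor Neurod1 read 528 against 263, at the edge of 2-fold higher.

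Of 12 cerebellar genes measured, 10 had differences above 0, with a median of 0.55 beside -0.08 at E14.5 and 0.27 at E16.5. The 2 that were 2-fold higher were Neurod1 and Gbx2, a transcription factor of the midbrain-hindbrain border (149 against 56.6). Zic1, of granule neuron precursors, read 1782 against 1151.

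Of 56 glial genes measured, 1 (1.79%) was 2-fold lower and 0 were 2-fold higher, a share near that of all genes, with a median of 0.03. That gene was Nfib, a transcription factor at the onset of glial fate that also acts in neurons, at 292 against 945, with 273 against 624 on its other probe set. Of the astrocyte genes, the lipid carrier Apoe read 1756 against 2200.1 and the gap junction protein Gja1 1684 against 2171. Of 21 radial glia genes 16 were above 0, with a median of 0.19, and Fabp7, a fatty acid binding protein of these cells, read 5200.3 against 4873. None of 9 oligodendrocyte lineage genes was 2-fold apart, and Pdgfra, a receptor of their precursors, read 319 against 451.

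Of 93 progenitor genes measured, 0 were 2-fold lower and 1 was 2-fold higher, Notch3, a receptor also found on pericytes (167 against 75.9). By the probe set with the highest mean, the 62 cell division genes all lay within 2-fold (the _r_at probe set of Mcm5 did not), with a median of 0.10, and the 31 Notch and proneural genes had a median of 0.15. Id4, an inhibitor of differentiation found in progenitors and astrocytes, read 2456 against 1443, but it stood in the astrocyte list and not among these 93. Of the 93 genes 63 had a difference above 0, beside 3053 of all 5922.

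Markers of tissues next to the brain were set beside these values. Of 9 pituitary genes, 7 had differences above 0 and 3 were 2-fold higher: Pomc, growth hormone Gh (648 against 278) and Cga, the shared subunit of glycoprotein hormones (86.9 against 17.8). The list's summed intensity, with these 3 genes included, was 2620.3 in the top2b-/- brain against 1716 in the Top2b+/+ brain. The part of pituitary tissue in the Pomc difference was not tested. Of 27 meningeal and fibroblast genes 2 were 2-fold lower, Ptgds and the matrix proteoglycan Ogn (32.2 against 108), and the list's median was -0.17. The list's sums were 12587 against 14331. They include Ptgds itself, at 573 against 1950 on its probe set with the highest mean, so they are no separate measure of meninges. The part of meninges in the Ptgds difference was not tested. The choroid plexus and ependyma list had a median of 0.22 (0.04 with the floor at 142), with 5 of 8 measured genes above 0. In it 1 gene was 2-fold lower, Folr1, a folate receptor of choroid plexus (61.8 against 163). Another 1 was 2-fold higher, Rsph1, on its _r_at probe set. Ttr, the transthyretin of choroid plexus, read 761 against 894. No gene of the microglial, endothelial and erythroid lists was 2-fold apart, with medians of 0.19, -0.13 (0.06 with the floor at 142) and 0.09.

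In the list of fatty acid elongation and cholesterol synthesis, Elovl1 was the 1 gene of 18 past 2-fold, while 15 lay below 0 and the median was -0.36. Fdps, of isoprenoid synthesis, read 1366 against 2347 and Cyp51, of sterol synthesis, 308 against 569. Ribosomal protein, housekeeping and oxidative phosphorylation genes had medians of 0.01, -0.01 and -0.08, with no stable sign across the scalings and floors tried, and none was 2-fold apart.

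The genes that were lower were often long. Span, from start to end of the gene in RefSeq on GRCm38.p6, had a median of 65.6 kb over the 123 lower genes, 14.8 kb over the 77 higher ones and 20.8 kb over all measured. Of 123 measured genes over 300 kb, 41 (33.3%) were 2-fold lower and 1 was 2-fold higher. Their median difference was -0.52, and 105 had a difference below 0. The share 2-fold lower was 1.38% under 20 kb, 1.06% from 20 to 100 kb and 3.11% from 100 to 300 kb.

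The share was alike at low and high signal. With genes split into 3 parts by mean signal, 34.7%, 34.0% and 29.6% of those over 300 kb were 2-fold lower, from the dimmest part to the brightest. Among the 102 above the floor on both arrays it was 28.4%. With the floor at 142, 18 genes over 300 kb were lower.

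The neuronal lists held 27 of the 41 long genes that were lower, which was 62.8% of the 43 measured list members over 300 kb. Of 48 neuronal genes from 100 to 300 kb, 6 (12.5%) were lower and 0 higher, with a median of -0.16. Among the 498 genes of that span in no neuronal list, 2.21% were lower. Of 153 neuronal genes up to 100 kb, 4 (2.61%) were lower and 6 (3.92%) higher, with a median of 0.03. Over all 5247 measured genes of that span, 1.24% were lower and 1.33% higher, with a median of 0.02. Of the 80 genes over 300 kb in no neuronal list, 14 (17.5%) were lower, with a median of -0.35. This split was made after the values were seen.

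Long genes outside the lists included Nxph1, a secreted ligand of neurexins, at least 4.62-fold lower (-63.6 against 196), and Ptprk, a receptor phosphatase, 4.28-fold lower (61.5 against 263). Exoc4, of the exocyst that tethers secretory vesicles, read 93.4 against 274, and Fgf13, a modulator of sodium channels, 104 against 257. These were named after their values were seen, as were the exceptions among all long genes. Macrod2, with a span of 1998 kb, read 216 against 203, and the nuclear receptor Rora, of 735 kb, 165 against 99.9. Plcb1, a phospholipase and the 1 long gene counted as higher, read 530.0 against 214 on one probe set but 92.6 against 203 and 7.83 against 88.1 on its others.

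**Figure D3:**
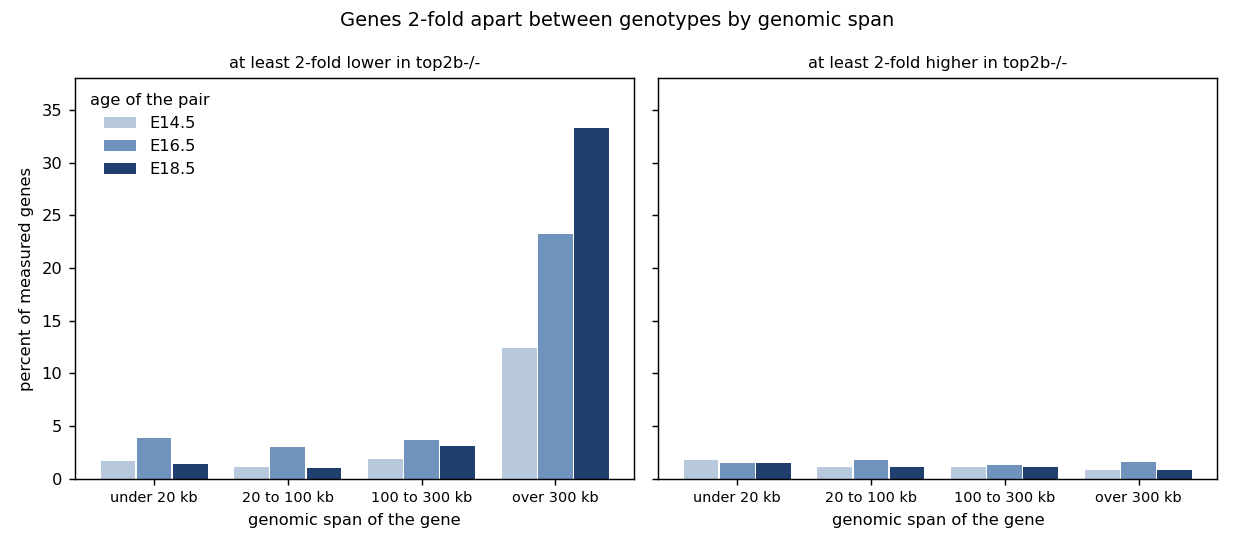
Percent of measured genes at least 2-fold lower and at least 2-fold higher in the top2b-/- brain by class of genomic span in kb and by age, each bar from 1 array a side. Among genes over 300 kb the lower share is 12.4% at E14.5, 23.2% at E16.5 and 33.3% at E18.5.

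At the younger ages 15 of 121 genes over 300 kb (12.4%) were 2-fold lower at E14.5 and 29 of 125 (23.2%) at E16.5. The shares over all genes were 1.67% and 3.92%, beside 2.08% at E18.5, and so did not take the same order. Over all genes 1.44% and 1.59% were 2-fold higher at the younger ages, beside 1 and 2 genes over 300 kb. Over 112 long genes measured at every age, the median difference was -0.25, -0.49 and -0.53. The E18.5 difference lay below that of E14.5 in 86 of them (76.8%), beside 56.0% of all genes, and below that of E16.5 in 71 (63.4%), beside 42.3%. Each age is 1 pair of arrays, so age and array pair cannot be told apart.

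Single genes took different courses, given here from E14.5 to E18.5. Epha3 read 249, 170.0 and 205 in the Top2b+/+ arrays and 202, 89.9 and 44.3 in the top2b-/- arrays. Kcnma1 read 160.1, 285 and 329 in the Top2b+/+ arrays, while the top2b-/- arrays read 116, 117 and 93.5. Syt1 read 453, 430.0 and 854 with Top2b and 228, 216 and 151 without it. In all 3 the genotypes lay furthest apart at E18.5. Robo1 read 611, 444 and 405 with Top2b and 106, 141 and 94.7 without it, and Ebf1 207, 196 and 150.0 with it and 50.5, 20.8 and 9.95 without it. These last genes were already at least 4-fold apart at E14.5.

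**Figure D4:**
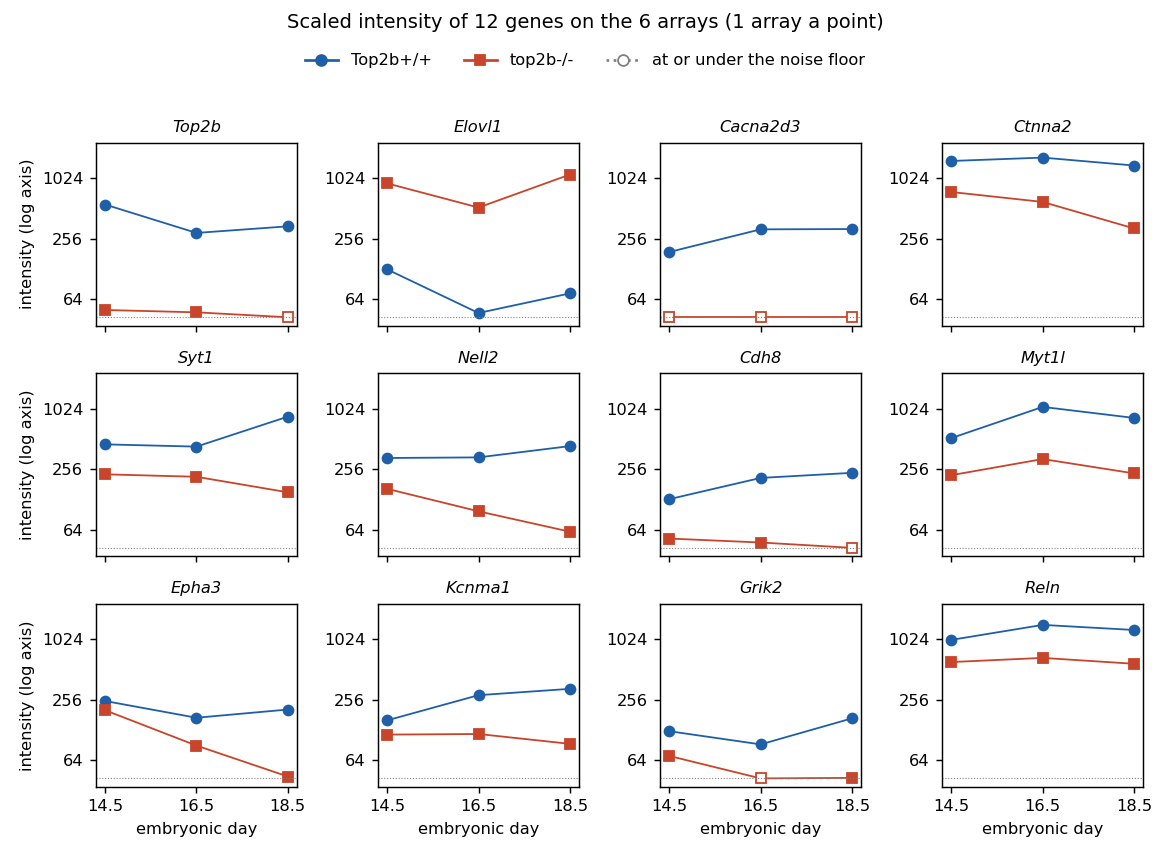
Scaled intensity (log axis) of 12 genes on the 6 arrays against embryonic day, 1 point an array, with Top2b+/+ in blue, top2b-/- in red and readings under the noise floor of 42.4 drawn at it as open symbols. Top2b, Cacna2d3 and Elovl1 are apart at every age. Elovl1, Epha3, Kcnma1 and Syt1 are among the genes whose genotypes are furthest apart at E18.5.

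Promoters are printed for Elovl1, the gene with the highest difference, and for Ctnna2 and Syt1, long genes that were lower, so that the sequence at a start site of each can be compared. Each is a RefSeq window on GRCm38.p6 from 250 bases before to 50 after a transcript start, 5′ to 3′ along the gene. The transcript starts lie 1219, 148 and 5 bases from the outer start of the gene. Capitals mark GC boxes, the letters GGGCGG on either strand, which can overlap. The windows are chr4:118427843-118428142 on the plus strand, chr6:77979618-77979917 on the minus strand and chr10:109010926-109011225 on the minus strand.
Elovl1: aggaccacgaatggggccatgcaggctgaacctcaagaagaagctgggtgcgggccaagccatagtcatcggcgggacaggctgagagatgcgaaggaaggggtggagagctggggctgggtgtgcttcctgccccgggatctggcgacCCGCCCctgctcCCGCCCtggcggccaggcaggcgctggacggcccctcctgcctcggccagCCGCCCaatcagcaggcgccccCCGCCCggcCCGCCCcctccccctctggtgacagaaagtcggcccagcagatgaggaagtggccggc
Ctnna2: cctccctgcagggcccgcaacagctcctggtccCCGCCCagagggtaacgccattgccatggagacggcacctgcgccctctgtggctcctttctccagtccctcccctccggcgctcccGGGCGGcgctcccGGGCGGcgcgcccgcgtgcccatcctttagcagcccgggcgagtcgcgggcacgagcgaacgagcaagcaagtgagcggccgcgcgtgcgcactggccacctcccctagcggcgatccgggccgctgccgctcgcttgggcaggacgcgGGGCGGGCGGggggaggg
Syt1: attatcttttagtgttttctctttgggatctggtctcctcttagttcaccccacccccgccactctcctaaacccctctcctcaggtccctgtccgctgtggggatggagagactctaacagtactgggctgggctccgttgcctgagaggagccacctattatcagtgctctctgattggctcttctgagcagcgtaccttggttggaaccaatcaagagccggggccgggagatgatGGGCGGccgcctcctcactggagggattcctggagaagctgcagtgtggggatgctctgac

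The windows hold 5, 5 and 1 GC boxes, with a G+C content of 70.7%, 75.3% and 56.7%. A GC box is common: 65.5% of the 4771 measured genes with a window have one, beside 58.8% of 97 lower genes and 65.6% of 61 higher genes. A match is a description of these letters, not a binding site.

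By chromosome, the share of measured genes 2-fold lower ran from 0.968% on chromosome 3 to 4.08% on chromosome 14 (8 of 196), which carries Top2b. The next shares were 3.30% on chromosome 16 and 3.24% on chromosome 10. The 8 genes on chromosome 14 include Top2b itself, as well as Cacna2d3, Grid1, Kcnma1 and Ptprg, which each span over 300 kb. The part of nearness to the targeted gene in these differences was not tested.

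The younger pairs share no array with the E18.5 pair. Of the 181 lower probe sets, 97 (53.6%) were below 0 at both younger ages and 20 (11.0%) above 0 at both. Over all probe sets below 0 at E18.5 these shares were 26.3% and 24.3%. Of the 110 higher ones, 18 (16.4%) were above 0 at both younger ages and 43 (39.1%) below 0 at both, beside 28.8% and 23.0% of all above 0. At all 3 ages, 19 probe sets were 2-fold lower and 2 were 2-fold higher.

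**Figure D5:**
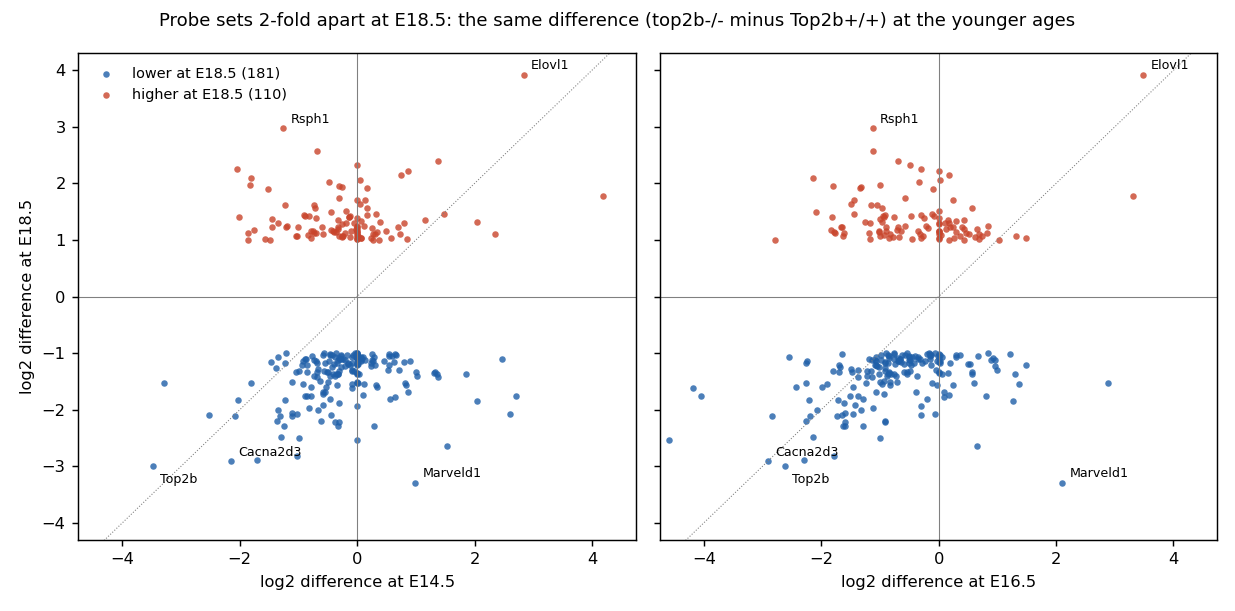
Log2 difference (top2b-/- minus Top2b+/+) at E18.5 against that at each younger age for the 181 lower and 110 higher probe sets of E18.5, 1 point a probe set. At E16.5, 141 of the lower ones are below 0 as well, while 34 of the higher ones are above 0 and 65 below.

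Some differences passed those of both younger ages by 2-fold or more: 47 lower probe sets (0.601%) and 74 higher ones (0.947%). Counted the same way, E16.5 had 141 lower (1.8%) and 68 higher (0.87%), and E14.5 had 53 lower (0.677%) and 61 higher (0.779%). The E16.5 pair, with its female top2b-/- embryo, was spread more widely over all measured probe sets. Its quartiles were -0.34 and 0.21, beside -0.17 and 0.19 at E18.5, so its counts are not like for like. Of the 47 lower ones at E18.5, 20 were above 0 at both younger ages, and of the 74 higher ones 43 were below 0 at both. The rule itself favours such opposite signs, which widen the gap between the ages. With the floor at 142 the 47 and 74 became 5 and 7. These differences between ages were not tested.

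Of the 47, 9 (19.1%) were below 0 at both younger ages as well, beside 26.3% of all probe sets below 0 at E18.5. The rule for the 47 favours younger differences near or above 0, so these shares are not like for like. The examples here were picked from the 9 after their values were seen. Syt1 had a difference of -0.99 at E14.5 and -2.50 at E18.5. From E14.5 to E18.5 Epha3 had -0.30, -0.92 and -2.21 and Nell2 -1.02, -1.78 and -2.83. Nfib had -0.55, -0.39 and -1.70 and Ptprk -0.45, -0.31 and -2.10. In these genes the E18.5 pair was further apart in a direction already seen.

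The 10 lower genes with the largest excess over the younger ages were Marveld1, Gtf2f2, Hps4 of lysosome-related organelles, the F-box protein gene Fbxo6, Phf7, the lipase Daglb, Utp14a, Gtf3c5, the addressin Madcam1 and the kinase Sphk2. All 10 had differences of the other sign at E14.5, and 9 at E16.5 as well. The ranking favours such genes, since a younger difference of the other sign enlarges the excess. Marveld1 had 0.99, 2.11 and -3.29 and Gtf2f2 1.54, 0.65 and -2.63. Phf7 was ranked by an _r_at probe set (-248 against 143), while its probe set with the highest mean read 289 against 281. In 7 of the 10 the top2b-/- reading at E18.5 lay under the floor.

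The 10 higher genes with the largest excess were Rsph1, Mcm5, Hdgf, the transcription factor Tef, Grb7, Tbc1d20, Serpina6, the keratinocyte protein Sprr2e, the receptor Ager and Myoz1. All 10 had differences below 0 at both younger ages, which the ranking favours in the same way. Mcm5 had -1.81, -2.15 and 2.09 on this probe set and -0.27, -0.31 and -0.20 on its other one. In 5 of the 10 the Top2b+/+ reading at E18.5 lay under the floor.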

How the data were processed

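Whole-brain RNA was hybridised to Affymetrix MG_U74Av2 arrays, 1 for each of 2 genotypes at 3 ages. The deposited values are linear intensities, 1 a probe set, some below 0; the authors used the Rosetta Resolver system, per the series' design text, and how probes were summarised or arrays scaled is not stated in the sources used. All arrays were brought to one median (79.6) over the 12422 probe sets that are no controls, with factors from 0.957 to 1.44. The floor of 42.4 is the largest size of any array's 5th percentile. Of the probe sets 10833 had 1 gene symbol, 396 several and 1193 none; 10817 were updated by Entrez ID through RefSeq. In lists and counts of genes, a gene is given by its probe set with the highest mean over 6 arrays. With 1 array a group, counts and medians stand in place of tests, and the number of arrays limits the precision.

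The genes named are Top2b, then, ranked over all probe sets with each gene taken once at its most extreme, the 12 lowest and 12 highest at E18.5, up to 10 a direction with the largest excess over the younger ages, and from each list the members 2-fold apart (up to 6) and up to 2 others with high signal; further list members (beyond 6 in the adhesion list, and examples such as Snap25, Tubb3, Gap43, Sst, Top2a and Cyp51) were picked after their values were seen. Members and lists were chosen with earlier results of these data known. Python 3.11.15, pandas 2.3.3, numpy 2.4.6 and matplotlib 3.10.9 were used, and the counting was tested on simulated data. In the simulation only bright probe sets were changed, by more than 2-fold. It therefore does not show how calls near 2-fold or near the floor behave. Alternatives were the scaling, the floor, the filter, the threshold and the mean over probe sets.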

Additional observations from a re-analysis of the deposited data

Results flagged for a closer look

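For 11 probe sets with 1 gene symbol the E18.5 difference was at least 2-fold and of the other sign to both younger ages. Both younger differences were also at least 2-fold, which singled these probe sets out. Over all probe sets, with or without a symbol, 2 lower and 11 higher ones met this rule. With 1 array a side the difference between ages was not tested. Lower at E18.5 and higher before were Hps4 (-1.85) and Fbxo6 (-1.37). Higher at E18.5 and lower before were Rsph1 (2.98), Mcm5 on its _r_at probe set (2.09), Tef (1.41), Ager (1.38), the aminoacylase Acy3 (1.23), Tbc1d20 (1.18), the survival factor Bcl2 (1.12), the protease Mmp11 (1.06) and Sprr2e (1.01).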

How the results depend on the processing

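No paired analysis was possible because each group has 1 array, and no replicate could be left out. With the floor at the 1st percentile, the differences of Utp14a, Gtf3c5, Tbc1d20 and Ager went to 0, so these genes had no direction there. Those of Phf7 and Sphk2 shrank to -0.01 and -0.03. None of 36 named genes turned to the opposite sign. The sign of 6 of 36 medians (35 lists and all genes) did: unscaled, potassium and sodium channels went from -0.01 to 0.07 (0.01 with quantile normalization), housekeeping genes from -0.01 to 0.07 and oxidative phosphorylation from -0.08 to 0.00356. Monoamine genes went from 0.07 to -0.12 with the higher floor and -0.01 with the lower, endothelium from -0.13 to 0.06 with the higher, and ribosomal proteins from 0.01 to -0.00304 with the lower. Some medians kept their sign but shrank with the higher floor. Glutamate receptors went from -0.67 to -0.16, adhesion molecules from -0.68 to -0.40, cerebellar genes from 0.55 to 0.33 and pituitary from 0.92 to 0.32. Not all shrank: muscle, cartilage and skin went from 0.10 to 0.28. The main counts of probe sets were 181 lower and 110 higher, with 47 lower and 74 higher that passed both younger ages by 2-fold. With the floor at the 1st percentile these were 56, 14, 5 and 7. With the floor at the pooled 20th percentile they were 844, 649, 447 and 399, and with a 3-fold threshold 49, 23, 11 and 17. Requiring both E18.5 arrays above the floor gave 63 higher, and 25 lower and 35 higher past both younger ages; each array's own noise limit gave 82 lower past both. Of neuronal genes (37 lower, 6 higher), 18 and 2 were counted with the higher floor, and 20 and 1 at 3-fold. Genes over 300 kb (41 lower; a count added after seeing the data) gave 18 and 21 there. Glial genes (1 lower, 0 higher) gave 6 and 2 with the lower floor, and 2 lower with quantile normalization or each array's own limit. Progenitor genes (0 lower, 1 higher) gave 4 and 5 with the lower floor, 2 higher unscaled or with own limits, 4 higher with quantile normalization, and 0 higher with the higher floor or at 3-fold. The cause was not tested. Of 36 named genes, 29 moved by over 1.5 times with the higher floor, 14 with the lower one and 0 with either scaling. The median over all genes was 0.01, 0.09 unscaled.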
